A study of Homo sapiens with 2 samples.

Results

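The rows examined here are the mature miRNAs miR-320a to miR-320e, miR-484 and miR-877. They are grouped as miRNAs whose precursors can be made without the nuclease Drosha, a route described below for miR-320a, miR-484 and miR-877. Whether the precursors of miR-320b to miR-320e skip Drosha was not tested. All rows were selected by name alone. Of the 7 names sought, 5 were found, each as 1 row in both tables (miR-320a, miR-320b, miR-320c, miR-484 and miR-877-5p), among 425 miRNAs listed in either table. Neither table listed miR-320d, miR-320e or miR-877-3p, and these were taken as 0. Both libraries came from MDA-MB-231-IV2-1 cells, a strongly metastatic derivative of the human triple-negative breast cancer line MDA-MB-231, and the cell line label gives only the parental name. The control cells received the scrambled siRNA (N.C) and the knockdown cells a pool of siRNAs against the long non-coding RNA LOC550643, and RNA was taken after 48 h. With 1 library per condition there was no replicate, so no p-value was computed. Tables of mature miRNAs hold no marker with which the identity of the line, or the depletion of LOC550643, could be checked.

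Most miRNAs arise from successive cuts. Drosha releases a hairpin from a long transcript in the nucleus, and Dicer then trims the hairpin to the mature strands in the cytoplasm. Several hairpins skip the first cut. In the capped class, to which miR-320a and miR-484 belong, RNA polymerase II transcribes a short hairpin whose 5′ end carries the cap, so that Dicer makes the only cut. In the mirtron class, to which miR-877 belongs, the splicing machinery releases a short intron that folds into the hairpin. The genes of miR-320b to miR-320e encode near copies of miR-320a.

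The mature sequences are shown because the miR-320 names are near-identical, which bears on how reads were divided among them. They are written 5′ to 3′ from RefSeq (GRCh38.p14), with the seed, bases 2 to 8, in capitals. The sequence of miR-320a was not used here.
miR-320b: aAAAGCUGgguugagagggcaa
miR-320c: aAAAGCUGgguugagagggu
miR-320d: aAAAGCUGgguugagagga
miR-320e: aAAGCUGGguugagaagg
miR-484: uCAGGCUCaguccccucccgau
miR-877-5p: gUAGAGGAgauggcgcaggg
miR-877-3p: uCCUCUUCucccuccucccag
miR-320b, miR-320c and miR-320d share the seed AAAGCUG. The first 19 bases of miR-320b and miR-320c are identical, and the first 18 bases of both are also those of miR-320d. miR-320e starts 1 base further in, which gives it the seed AAGCUGG, and its longest run in common with each of the other three is 15 bases. The seeds of miR-484 (CAGGCUC) and miR-877-5p (UAGAGGA) are unrelated to these. At 63.6% and 65.0% GC, miR-484 and miR-877-5p were richer in G and C than miR-320b and miR-320c (50% each). The median over the 350 listed miRNAs that matched a RefSeq sequence was 50%.

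The genes lie in different surroundings. The hairpin of miR-877 (MIR877, chr6:30584332-30584417, plus strand, 86 bases) had exactly the ends of a complete intron in 3 of the 4 annotated GENCODE 29 transcripts of ABCF1 near it. ABCF1 encodes a ribosome-associated ATPase. The hairpin is shown with the splice-site dinucleotides at both intron ends in capitals.
MIR877: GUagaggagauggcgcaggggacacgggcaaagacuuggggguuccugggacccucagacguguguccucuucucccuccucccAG
miR-877-5p occupies bases 1 to 20 of this hairpin and miR-877-3p bases 66 to 86, so that both mature strands reach an intron end. The hairpin of miR-484 (MIR484, chr16:15643294-15643372, plus strand) lies in a non-coding stretch of an exon of NDE1, a gene for a dynein-binding protein, and starts 27 bases after the annotated start of an NDE1 transcript. Its mature strand is at bases 8 to 29 of 79.

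Among the genes of miR-320, that of miR-320a lies less than 1 kb from POLR3D, a subunit gene of RNA polymerase III, on the opposite strand. miR-320b has 2 genes on chromosome 1, of which MIR320B2 (chr1:224257040-224257110, minus strand) lies in an intron of NVL in sense. Both miR-320c genes are on chromosome 18, MIR320C1 (chr18:21683518-21683589) in an intron of ABHD3 and MIR320C2 (chr18:24321675-24321746) in an intron of OSBPL1A, and each is antisense to its host. In the hairpins of miR-320b and miR-320c the mature strand is in the 3′ portion, for example bases 42 to 63 of 72 in MIR320B1.

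The authors deposited RPM values, which give each miRNA as its share of all reads assigned to mature miRNAs, scaled so that each library has the same total. Low values rise in steps worth 1 read, which were 5.29 RPM in the control and 2.03 RPM in the knockdown library. These steps correspond to about 189034 and 491541 miRNA reads. The knockdown library was the deeper, so that at a given RPM its values carry the smaller counting error. Intervals are 95% Clopper-Pearson intervals from the estimated reads, and they cover counting error only.

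By level, miR-320a stood far above the other members. The control value was 1398 RPM, from 264 reads, with bounds of 1233.3 and 1575 RPM. The knockdown value was 1293 RPM, from 635 reads, with bounds of 1193 and 1396 RPM. These placed it at ranks 42 and 44 of the listed miRNAs. For miR-320b the values were 70.9 RPM in the control (36.6 to 118 RPM) and 62.8 RPM in the knockdown (42.9 to 89.5 RPM). Lowest was miR-320c, with 23.3 RPM in the control (5.77 to 54.2 RPM) and 11.9 RPM in the knockdown (4.48 to 26.6 RPM). The libraries' intervals overlapped for each of these 3 rows, and the order miR-320a, miR-320b, miR-320c was the same in both. In the control library the intervals of miR-320b and miR-320c overlapped, so that their order there was within counting error, while in the knockdown library they did not.

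The capped-hairpin product miR-484 had 17 control reads, or 89.9 RPM (52.4 to 144 RPM), and 46 knockdown reads, or 93.6 RPM (68.5 to 125 RPM). The values lay within each other's interval. The mirtron product miR-877-5p had 18 reads in each library, which amount to 95.2 RPM (56.4 to 150 RPM) in the control and 36.6 RPM (21.7 to 57.9 RPM) in the knockdown. The same number of reads thus stood for a lower share of the deeper library, and the intervals overlapped only at their ends. In the control library miR-877-5p, miR-484 and miR-320b had overlapping intervals and could not be ordered. In the knockdown library miR-877-5p lay below miR-484 without overlap, and its interval overlapped that of miR-320b. RPM compares rows within a library as captured. Differences between miRNAs in ligation or amplification were not tested.

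**Figure D1:**
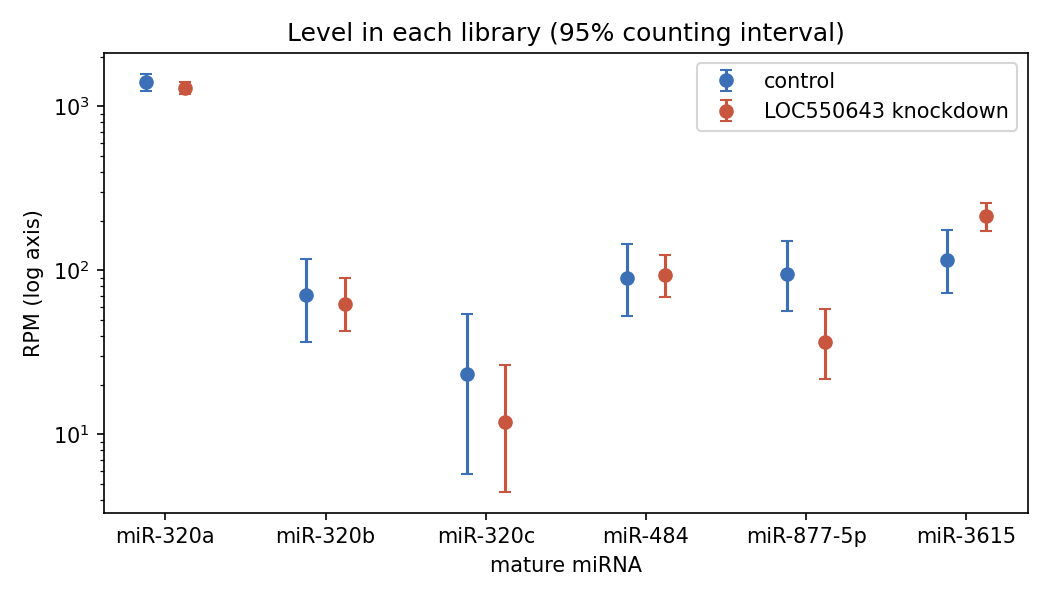
RPM (vertical log axis) of the 5 listed members and of miR-3615 in the control and LOC550643 knockdown libraries, each point 1 library and each bar its 95% counting interval. miR-320a sits far above the others in both libraries, and miR-877-5p goes from 95.2 RPM in the control to 36.6 RPM in the knockdown library.

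No read of the opposite arm of miR-877 was listed: 0 of 18 reads on the 2 arms in either library. If up to 3 reads of miR-877-3p could have been missed, they would come to 16.7% of the 18 listed reads in each. This is a rough limit and not a Clopper-Pearson bound. For miR-320d and miR-320e, a level above the value of 3 reads, 15.9 RPM in the control library or 6.10 RPM in the knockdown library, would have been needed to separate them from a count of 0. Arms of miR-320a could not be compared, since its row carries no arm suffix.

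Within miR-320, miR-320a held nearly all reads. Its share of the miR-320 sum was 93.7% in the control library (interval 90.1 to 96.2%) and 94.5% in the knockdown library (92.5 to 96.1%). The share of miR-320b was 4.75% (2.48 to 7.75%) in the control and 4.59% (3.16 to 6.48%) in the knockdown library. For miR-320c it was 1.56% (0.388 to 3.59%) and 0.872% (0.328 to 1.93%). No share differed between the libraries beyond its counting intervals.

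The values of all 3 miR-320 rows lay at fractions of a read. Divided by the step worth 1 read, the control values came to 264.21 reads for miR-320a, 13.40 for miR-320b and 4.40 for miR-320c, none of them within 0.1 of a whole number. In the knockdown library they came to 635.44, 30.86 and 5.86 reads. By contrast, miR-484 came to 17.00 and 46.00 reads and miR-877-5p to 18.00 reads in both. Such fractions were uncommon, at 10.1% of the 356 control values and 9.91% of the 333 knockdown values up to 700 reads. Summed over the 3 rows, the control reads came to 282.01. This was within 0.01 of a whole number, but off it by more than the fitting error of 0.0014. The knockdown sum came to 672.15 reads and stayed at a fraction, with a fitting error of 0.01. How the authors' tool treated a read that matches several miRNAs is not given in the sources used here, and the part of such reads in the levels of miR-320b and miR-320c was not tested. The separate values of these near-identical rows are therefore uncertain, while the miR-320 sum does not depend on how reads were divided among the rows it adds.

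**Figure D2:**
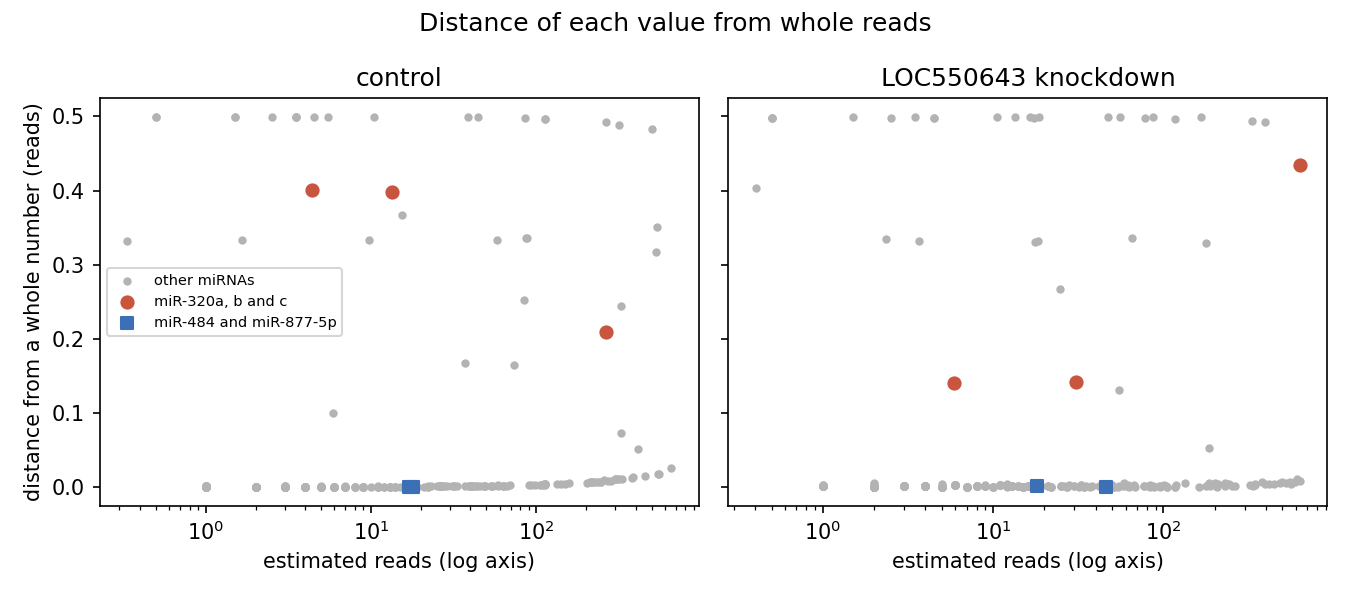
Distance of each value from the nearest whole number of reads (vertical axis, reads) against its estimated reads (horizontal log axis, up to 700) in the control and LOC550643 knockdown libraries, each point 1 miRNA. All 3 miR-320 rows lie away from 0 in both libraries, whereas miR-484 and miR-877-5p lie at 0 with most other miRNAs.

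The comparison of knockdown with control asks which miRNAs differ when LOC550643 is depleted. Fold changes put the knockdown value over the control value after scaling both libraries to the same total, as differences of log2(RPM + 1), which understate what happens at low values. The miR-320 sum was 1492 RPM (1323 to 1676 RPM) in control cells and 1367 RPM (1266 to 1474 RPM) after knockdown. Its log2 fold change was -0.13, with a counting interval of -0.33 to 0.080, so that a difference was not detectable at this depth and one beyond 2-fold lay outside the interval. Singly, miR-320a had a log2 fold change of -0.11 (-0.32 to 0.10), miR-320b -0.17 (-1.10 to 0.93) and miR-320c -0.91 (-2.87 to 1.47). The interval of miR-320c, from 4 and 6 reads, spans more than 2-fold in both directions.

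miR-484 had a log2 fold change of 0.057 (-0.77 to 0.95). That of miR-877-5p was -1.36 (-2.41 to -0.35), an RPM 2.60-fold lower in the knockdown library. Of the 5 rows, miR-877-5p alone had a fold-change interval that excluded 0, and it alone was past 2-fold. None was more than 2-fold higher, where 17.9% of all 425 listed miRNAs were, and 1 of 5 was more than 2-fold lower, where 27.3% of all were. All 5 rows exceeded 3 reads in both libraries. This held for 201 miRNAs in all, of which 3.48% lay above 2-fold in the knockdown library and 10.9% below. The fold-change interval lay below 0 for 24.9% of these 201 and above 0 for 10.9%, so that 1 row of 5 with an interval below 0 is a usual share. At 1.5-fold, 2 of the 5 rows, miR-320c and miR-877-5p, were lower, where 35.3% of all 425 and 25.4% of the 201 were. Against these shares, 1 row past 2-fold among 5 sets the group apart in neither direction.

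Relative to all miRNAs, most members sat near the middle. The median log2 fold change was -0.17 over the 5 rows, -0.20 over all 425 miRNAs and -0.19 over these 201. Of the 201, 108 had a lower log2 fold change than miR-320a, 103 a lower one than miR-320b and 133 a lower one than miR-484. Only 30 were below miR-320c and 7 below miR-877-5p. Scaling by the median of ratios raised all log2 ratios by 0.20 and turned the sign of miR-320a and miR-320b to 0.086 and 0.024, while miR-877-5p remained past 2-fold at -1.16.

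**Figure D3:**
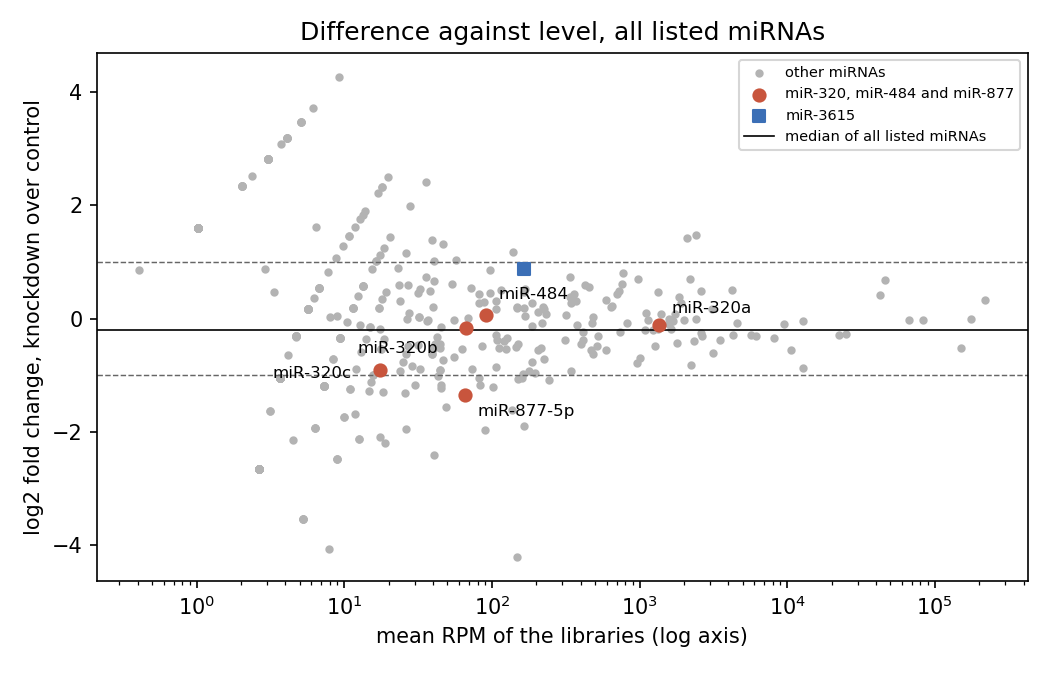
Log2 fold change of knockdown over control (vertical axis) against the mean RPM of the libraries (horizontal log axis) for the 425 listed miRNAs, with dashed lines at 2-fold and a solid line at the median of -0.20. miR-320a, miR-320b and miR-484 lie close to the median, and miR-877-5p lies below the lower 2-fold line.

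Other miRNAs known for capped hairpins or mirtrons were looked up by name: miR-1224, miR-1226, miR-1227, miR-1229, miR-1233, miR-1236, miR-1237, miR-1238 and miR-3615. Of these 9, 8 were listed in neither library. The exception was miR-3615, whose hairpin (MIR3615, chr17:74748613-74748699, plus strand) overlaps the first exon of SLC9A3R1 transcripts outside the coding sequence and begins 39 bases before their annotated start.
miR-3615: uCUCUCGGcuccucgcggcuc
This miRNA had 22 control reads, or 116 RPM (72.9 to 176 RPM), and 105 knockdown reads, or 214 RPM (175 to 259 RPM). The log2 fold change of 0.87 had bounds of 0.20 and 1.61, and the intervals of the libraries overlapped narrowly. Of the same 201 miRNAs, 193 had a lower log2 fold change. Its interval lay above 0, as did those of 10.9% of the 201 miRNAs, and that of miR-877-5p lay below 0, as did those of 24.9%. The values of miR-320 and miR-484 were between them.

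**Figure D4:**
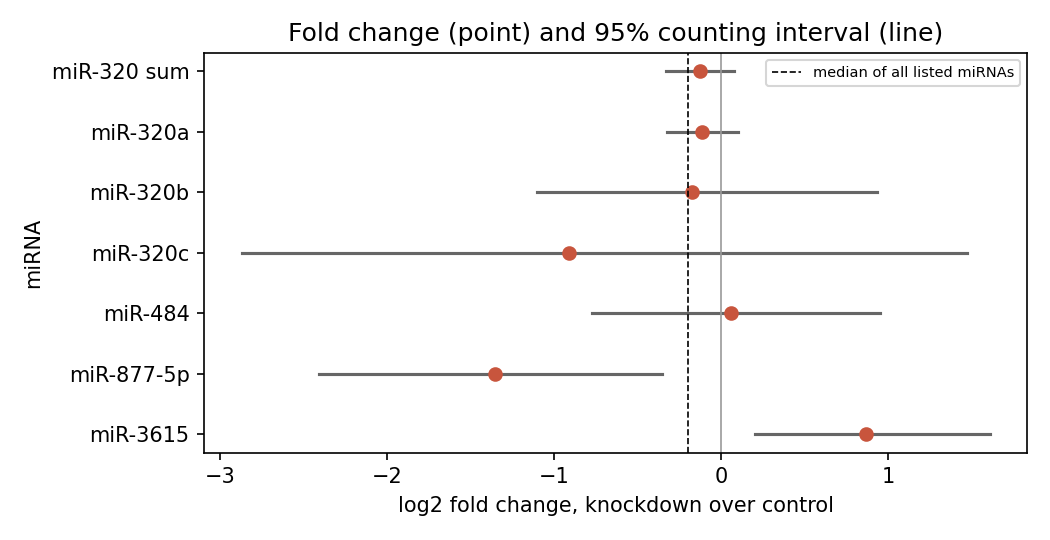
Log2 fold change of knockdown over control (horizontal axis, points) with its 95% counting interval (lines) for the miR-320 sum, the 5 listed members and miR-3615, and the median of all listed miRNAs as a dashed line. The interval of miR-877-5p lies below 0 and that of miR-3615 above 0, and the others include 0.

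The miRNAs with the most similar pair of values were found by the Euclidean distance of log2(RPM + 1) over the 2 libraries, the 3 nearest for each of 3 members. Nearest to miR-320a were miR-425-5p (distance 0.037), miR-29a-3p (0.062) and miR-28-3p (0.16). For miR-484 they were miR-181a-2-3p (0.19), miR-486-5p (0.28) and miR-378c (0.29). For miR-877-5p they were miR-455-3p (0.46), miR-452-5p (0.51) and miR-1299 (0.54), all lower in the knockdown library, with log2 fold changes of -0.89, -0.67 and -1.18. With 2 libraries, likeness of this kind says only that the values are close.

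As the study asks which miRNAs LOC550643 might bind, the 3 LOC550643 isoforms were searched for the reverse complement of each seed printed here. miR-320a, which held nearly all miR-320 reads, was not searched, because its sequence was not used. The 7-base matches sought were CAGCTTT for miR-320b, miR-320c and miR-320d, CCAGCTT for miR-320e, GAGCCTG for miR-484, TCCTCTA for miR-877-5p, GAAGAGG for miR-877-3p and CCGAGAG for miR-3615. The 6-base matches to bases 2 to 7 are these without their first letter. Only the sense strand was searched, and CAGCTTT and CCAGCTT overlap by 6 letters. None of these occurred in isoform V1, V2 or V3. Among the 350 listed miRNAs with a RefSeq sequence, 6% had a 7-base match in V1 and 16.6% a 6-base match.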

How the data were processed

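Small RNA libraries of MDA-MB-231-IV2-1 cells (1 control, 1 LOC550643 knockdown) were prepared by the authors with a NEBNext small RNA kit and sequenced on a MiSeq. The authors used an in-house tool to assign reads to mature miRNAs, and the deposited RPM sum to 999996 and 999845. The submitters' processing notes name cutadapt, FastQC and hg38. The aligner, the miRNA release and any low-value filter are not given in the sources used here.

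Values were scaled to equal totals, missing rows were set to 0, and log2 fold changes used a pseudocount of 1 RPM. The RPM worth 1 read was taken from a least-squares fit to values up to 20 reads lying within 0.1 of a whole number (92.9% of 253 control and 91.5% of 224 knockdown low values). The remainder were fractions, and no p-value was computed from counts. A fold-change interval that excludes 0 is still equivalent to a count test on rounded reads, and it covers counting error only. Reads were rounded for Clopper-Pearson intervals (scipy 1.17.1). Fold-change intervals came from the share of knockdown reads among both libraries' reads. The step fit and the intervals were tested on simulated libraries of whole reads. These had no fractions of a read and no variation between cultures, so the test did not cover either. Sequences were from RefSeq and gene models from GENCODE 29 (GRCh38). Isoforms were those of the study's supplement. Members and lists were chosen with earlier results of these data known. The named miRNAs were the members, the 9 other capped or mirtron miRNAs and the 3 miRNAs nearest to each of miR-320a, miR-484 and miR-877-5p. Python 3.11.15, pandas 2.3.3 and matplotlib 3.10.9 were used.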

Additional observations from a re-analysis of the deposited data

How the results depend on the processing

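No paired analysis was possible because there was a single library in each group, and counting intervals leave out the variation between cultures. Scaling to the 75th percentile raised all log2 ratios by 0.28 and gave log2 fold changes of 0.17 for miR-320a and 0.16 for the miR-320 sum. Both lay outside the counting intervals obtained with equal totals, whose upper bounds were 0.10 and 0.080. The median over the 5 rows was 0.024 with median-of-ratios and 0.11 with 75th-percentile scaling. The median over all miRNAs was -0.0019 with median-of-ratios scaling, 0.081 with 75th-percentile scaling and -0.093 where only miRNAs averaging 100 RPM or more were kept. At a 1.5-fold threshold 2 rows, miR-320c and miR-877-5p, were lower, against 35.3% of all 425 miRNAs. With median-of-ratios scaling the miR-320 sum was at 0.073, also with a turned sign, as was miR-320b at 0.11 with 75th-percentile scaling. Of 63 alternative values, 55 stayed within the counting interval, within 0.1 of the median or at the same count. The miR-320 sum at 0.073 and miR-320b at 0.11 are among these 55. Several others of the 55 could not differ from the main value. All 5 rows passed the filters on presence and on more than 3 reads, and miR-877-3p was not listed. This fixed the miR-320 shares, the miR-877 arm shares, and the medians and counts of the 5 rows under those filters. The tally is therefore not a measure of stability. The filter on more than 3 reads in both libraries was added after seeing the data. Arm shares of miR-320a were not computed.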

Other observations

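Fractions of a read were not particular to miR-320. Up to 20 reads they were found for 18 miRNAs of the control and 19 of the knockdown library, 5 of which were in both lists: miR-106a-5p, miR-107, miR-320c, miR-378f and miR-500a-5p. The pairs that follow were chosen after their values were seen. In the knockdown library miR-1268a came to 16.5 reads and miR-1268b to 18.5 reads, with a sum of 35. There, miR-151a-5p came to 13.5 reads and miR-151b to 1.5 reads, with a sum of 15. In the same library miR-374a-5p came to 4.5 reads and miR-374b-5p to 17.5 reads, with a sum of 22. In the control library miR-19a-3p came to 3.5 reads and miR-19b-3p to 5.5 reads, with a sum of 9. Each sum was within 0.01 of a whole number. Any pair of values ending at 0.5 of a read adds to a whole number, so these sums cannot show whether the paired rows shared reads. The control sum of the miR-320 rows was also within 0.01 of a whole number, though off it by more than its fitting error of 0.0014. Their knockdown sum, 672.15 reads, was further from a whole number. Sharing of reads was not tested.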
